A study of Mus musculus with 8 samples.

Results

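The cytosolic and endoplasmic reticulum (ER) heat shock genes of the neonatal mouse heart were taken from a table of 54532 genes by name. A member is a protein-coding gene whose symbol begins with Hspa, Hspb, Hsph, Hsp90 or Dnaj, with Cryab added. Of 73 such rows, 4 were left out: Hspa9 and Dnajc19, whose proteins work in mitochondria, and Hspbp1 and Hspbap1, which are binding partners. The remaining 69 genes lie on 19 chromosomes and fall into 5 families: 10 Hsp70 genes, 3 Hsp110 genes, 3 Hsp90 genes, 9 small heat shock genes and 44 Dnaj genes, the last in the classes Dnaja (4), Dnajb (13) and Dnajc (27). The name rule does not fully match the label, since the proteins of Dnaja3, Dnajc11, Dnajc15 and Dnajc30 are known from mitochondria, and Hspb11 encodes a protein of intraflagellar transport.

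RNA came from hearts at postnatal day 4, with 4 libraries per group. The cHET hearts were Mrps5 fl/+;Myh6-Cre, in which Cre, driven in cardiomyocytes by the Myh6 promoter, removes 1 allele of Mrps5, the gene of a protein of the small mitochondrial ribosome subunit. The control hearts were Mrps5 fl/+ littermates, so both groups carry the floxed allele and only the cHET hearts carry Cre. No hearts with Cre and an unmodified Mrps5 were analysed here, so the transgene and the lost allele cannot be told apart, and the non-myocytes of a cHET heart keep both alleles.

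Heat shock proteins are chaperones that keep other proteins folded. Hsp70 proteins bind exposed stretches of unfolded proteins in a cycle driven by ATP; Dnaj proteins bring them substrates and start ATP hydrolysis, Hsp110 proteins exchange the bound nucleotide, and Hsp90 takes over clients such as kinases and steroid receptors. Small heat shock proteins hold unfolding proteins without ATP, and in heart muscle several of them bind sarcomere and filament proteins. Heat shock factor 1 switches on the inducible members through heat shock elements in their promoters, while the ER members respond to ER stress elements.

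Promoters of RefSeq genes (GRCm38.p6, 250 bases before to 50 bases after the start) were searched on both strands for the letters of these elements, and 55 of the 69 members had 71 promoters among 32851 in all. The 3-unit heat shock element GAANNTTCNNGAA, which contains both 2-unit forms searched, was found in 0.603% of all promoters and in those of 2 members, Dnajb6 and Hsph1. By gene this was 3.64% of the members with a promoter, against 0.662% of all genes. The facing 2-unit form GAANNTTC was found in 7.86% of all promoters and in 12 members: Dnaja1, Dnaja4, Dnajb6, Dnajc27, Dnajc5g, Hspa1a, Hspa1b, Hspb1, Hspb3, Hspb6, Hspb8 and Hsph1. Counted by gene, those are 21.8% of the members with a promoter, against 9.04% of all genes. The back-to-back form TTCNNGAA was found in 8.52% of all promoters and in 4 members, Dnajb4, Dnajb6, Dnajc10 and Hsph1. That is 7.27% of the members with a promoter, against 9.60% of all genes. The ER stress element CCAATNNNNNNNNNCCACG was found in 0.119% of all promoters and in 3 members, Hspa5, Hsp90b1 and Dnajc3. For this element the shares by gene were 5.45% of the members with a promoter and 0.137% of all genes. A match describes the letters and is neither a binding site nor a cause of any level below.

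The windows shown next were picked from members with a match before the start: Hspb1, Hspb3, Hspb6, the inducible Hsp70 pair and Dnajb6. Dnajb6 is the only member other than Hsph1 with a 3-unit match. The match of Hspb8 and the 3-unit match of Hsph1 lie after the start. The abundant Hspb7 and Cryab are not among the members with a match, and 14 members had no promoter to search. All windows are written 5′ to 3′ on the strand of the gene with the heat shock letters in capitals.
Hspb1 (chr5:135887772-135887839, plus strand): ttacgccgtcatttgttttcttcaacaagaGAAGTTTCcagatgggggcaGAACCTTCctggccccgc
Hspb3 (chr13:113663863-113663926, minus strand): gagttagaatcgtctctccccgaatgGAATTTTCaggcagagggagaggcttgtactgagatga
Hspb6 (chr7:30553151-30553218, plus strand): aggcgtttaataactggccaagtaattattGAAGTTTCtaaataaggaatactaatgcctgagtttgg
Hspa1a (chr17:34972223-34972290, minus strand): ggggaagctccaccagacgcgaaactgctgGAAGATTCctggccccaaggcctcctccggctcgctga
Hspa1b (chr17:34959305-34959372, minus strand): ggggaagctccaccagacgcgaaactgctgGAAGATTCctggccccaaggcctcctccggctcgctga
Dnajb6 (chr5:29735847-29735869, plus strand): tccgaGAATCTTCCGGAAcgcta
The Hspa1a and Hspa1b windows carry the same letters throughout, which describes these stretches and not the transcripts. The Hspb1 window holds 2 copies of the facing form, beginning 117 and 97 bases before the start. The window of Hspb6 lies within the span of the gene, upstream of an alternative start. The Dnajb6 window lies in annotated exons of Dnajb6 and Gm5129, so only 5 bases are shown on each side.

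The ER genes are shown for the ER stress element, again in capitals, since their levels are set beside each other below.
Hspa5 (chr2:34772020-34772048, plus strand): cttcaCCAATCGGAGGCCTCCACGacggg
Hsp90b1 (chr10:86705608-86705686, minus strand): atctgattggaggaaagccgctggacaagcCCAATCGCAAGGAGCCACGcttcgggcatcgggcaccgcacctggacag
Dnajc3 (chr14:118937797-118937875, plus strand): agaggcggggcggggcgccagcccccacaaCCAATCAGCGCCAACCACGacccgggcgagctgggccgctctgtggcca
Hsp90b1 holds a second copy on the other strand, 107 bases before its start. The Hspa5 window lies in an annotated exon of Hspa5, so only 5 bases are shown on each side.

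The libraries held 15490622 to 19234777 rebuilt reads each, and 3 of the 8 (cHET 1, control 1 and control 3) were male by Xist and Ddx3y. Mrps5 had 6.84, 7.12, 7.0 and 7.68 FPKM (fragments scaled by gene length and library size) in cHET 1 to 4, and 11.6, 6.27, 10.1 and 5.15 FPKM in control 1 to 4, so control 2 and control 4 lay below every cHET library (limma, adjusted p = 0.849). The floxed exon is not named in the labels, so these values check the genotype only in part. Cardiomyocyte markers (8 of 8 measured, none at 0) summed to 13284 to 16831 FPKM in cHET and 14372 to 15730 FPKM in control. The brown fat gene Ucp1 stood at 0.286, 6.56, 0 and 1.62 FPKM in cHET 1 to 4 and at 17.8, 16.7, 0.0387 and 0.149 FPKM in control 1 to 4. Atrial transcripts stood apart in cHET 3, with 69.0 FPKM of Myl7 and 1.37 FPKM of Sln, against 643 to 3775 FPKM and 65.1 to 167 FPKM in the other 7 libraries. In tissue samples, fewer cells of a type and less RNA per cell cannot be told apart.

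Of the 69 members, 59 reached a mean of at least 1 FPKM over the 8 libraries and were tested. The small heat shock genes dominated: they made up 51.9% of the members' summed FPKM, followed by the Hsp90 genes with 17.5%, the Hsp70 genes with 13.0% and the Dnajc genes with 9.04%. Only 11 members reached a mean of 50 FPKM, and the 5 most abundant, Hspb7, Cryab, Hsp90ab1, Hspb1 and Hspa8, held 64.1% of the sum. The summed level was 3023, 2913, 3216 and 3391 FPKM in cHET 1 to 4 and 2683, 2658, 3009 and 2836 FPKM in control 1 to 4. The groups overlapped, since control 3 lay above cHET 2.

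**Figure D1:**
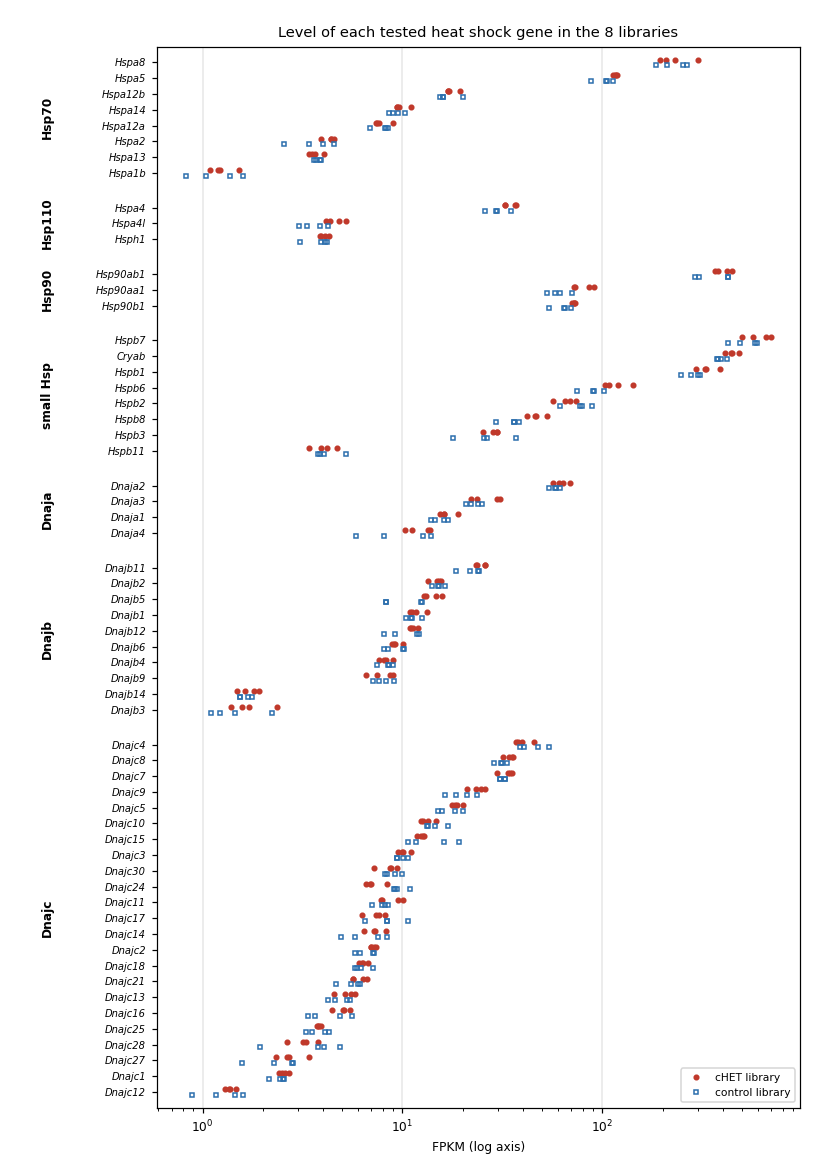
FPKM of the 59 tested heat shock genes on a log axis, with each filled red circle a cHET library, each open blue square a control library and the genes grouped by family (Dnaj genes by class). Small heat shock genes and Hsp90 genes lie at the high end, while the inducible Hspa1b lies near 1 FPKM, and most genes have overlapping groups.

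No member passed the test between the groups. Across the 13029 genes tested, limma called 3, all higher in cHET (Ndnf, Syt7 and Them6; 0.023%), and 0 of the 59 members, whose lowest adjusted p was 0.337. The voom fit on rebuilt reads also called 0 members. At an unadjusted p under 0.05, 5 members were higher in cHET (8.47%, against 5.03% of all genes): Hspb8, Hsp90aa1, Hspb6, Dnajb5 and Hspa4l. At the same threshold 1 member, Dnajc24, was lower (1.69%, against 3.92% of all genes). In 5 members all 4 cHET libraries were higher than all 4 controls (8.47%, against 2.74% of all genes): Hspb8, Hsp90aa1, Hspb6, Dnajb5 and Hsp90b1. Every cHET library lay below every control library in 1 member, Dnajc24 (1.69%, against 2% of all genes).

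Most differences were small and above 0. Of the 59 members, 45 had a log2 fold change above 0 (76.3%, against 52.1% of all genes), and their median was 0.096, against 0.0086 for all genes. All log2 fold changes are cHET minus control on the log2(FPKM + 1) scale. The median was highest in the Hsp110 genes (0.21; 3 of 3 above 0), the small heat shock genes (0.20; 6 of 8) and the Hsp90 genes (0.19; 3 of 3). It was 0.15 in Dnaja (4 of 4), 0.070 in Dnajc (16 of 23), 0.049 in Hsp70 (6 of 8) and 0.048 in Dnajb (7 of 10). These medians stayed above 0 under each of the 22 alternative settings, some of which, such as the replicate block, cannot change them. The lowest was 0.0019 for Dnajc without control 1 and control 2, below the 0.0023 of all genes in that setting. Scaled to TPM, the median of all genes itself moved to 0.10 and that of the members to 0.20. Relative to all genes, the members' median was then 0.094 higher, against 0.087 on the FPKM scale. The gap to all genes was 0.042 with library weights, where 39 of 59 members lay above 0, and 0.056 without control 1. Without cHET 3 the members' median was 0.072, with 46 of 59 above 0.

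**Figure D2:**
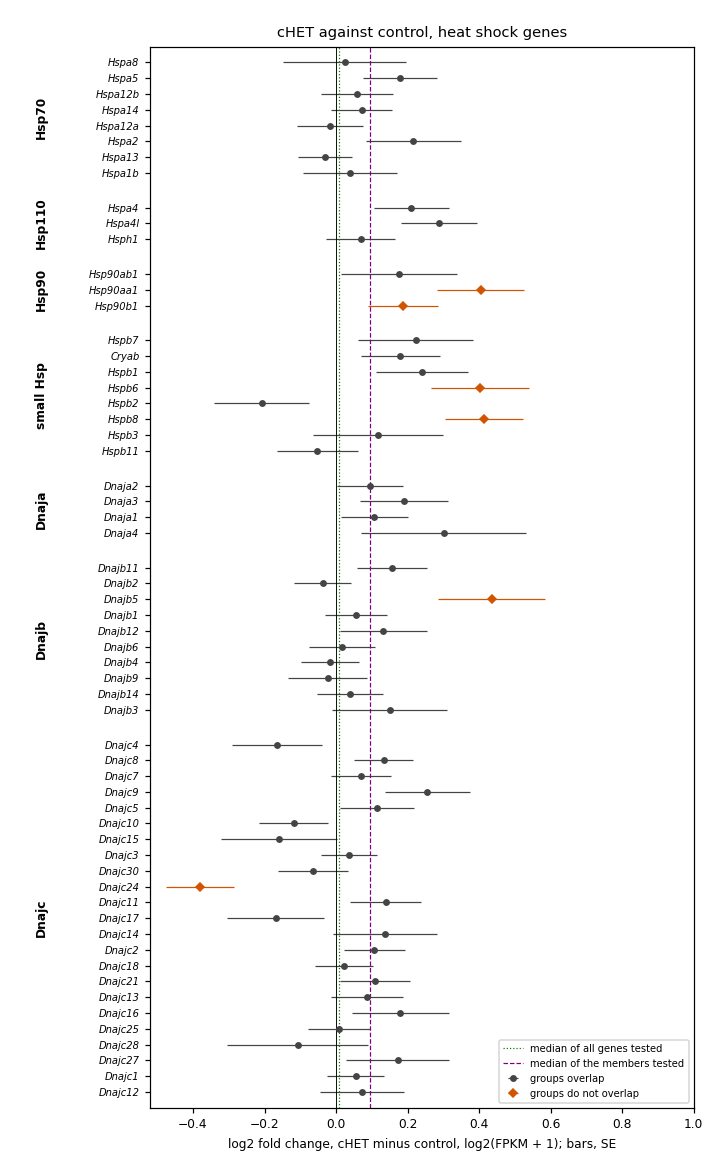
Log2 fold change (cHET minus control, log2(FPKM + 1)) of each tested heat shock gene with its SE as a bar; the dotted line is the median of all genes tested and the dashed line that of the members. The 6 orange diamonds, Hsp90aa1, Hsp90b1, Hspb6, Hspb8, Dnajb5 and Dnajc24, have groups that do not overlap, and Dnajc24 is the single diamond below 0.

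Among the small heat shock genes, 2 of the 8 tested separated the groups. Hspb8 (ENSMUSG00000041548, GRCm38 chromosome 5, 116408491 to 116422864, minus strand), whose protein works with Bag3 in clearing damaged muscle proteins, had 46.7, 41.9, 46.0 and 52.9 FPKM in cHET 1 to 4, against 29.5, 36.3, 36.2 and 38.1 FPKM in control 1 to 4. Its lowest cHET library stood above its highest control library. The means were 46.9 ± 4.55 FPKM in cHET and 35.0 ± 3.79 FPKM in control (SD, n = 4 each), and the log2 fold change was 0.41 (SE 0.109; adjusted p = 0.350 by limma). Hspb8 thus stayed short of the adjusted threshold despite the separation.

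Hspb6 (ENSMUSG00000036854, chromosome 7, 30552178 to 30555443, plus strand) encodes Hsp20, a target of cyclic nucleotide kinases in muscle. It had 108, 103, 120 and 143 FPKM in cHET 1 to 4 and 90.9, 74.8, 101 and 89.5 FPKM in control 1 to 4. The groups did not overlap, but the margin was narrow, as cHET 2 and control 3 nearly met. The log2 fold change was 0.40 (SE 0.137; adjusted p = 0.455 by limma). Under quantile normalization the groups of Hspb6 overlapped.

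Hspb7, a filament-binding protein of heart and muscle, had the highest mean of all members, 564 FPKM. It had 500, 570, 662 and 697 FPKM in cHET 1 to 4 and 486, 427, 577 and 590 FPKM in control 1 to 4. Control 3 and control 4 lay above cHET 1 and cHET 2, and the log2 fold change was 0.22 (SE 0.161; adjusted p = 0.679 by limma). It was 0.045 without control 1 and control 2. Hspb1 encodes Hsp27, which protects actin filaments. It had 329, 296, 326 and 387 FPKM in cHET 1 to 4 and 301, 309, 276 and 246 FPKM in control 1 to 4. Only cHET 2 fell within the control range, and the log2 fold change was 0.24 (SE 0.129; adjusted p = 0.617 by limma). The muscle gene Hspb3 spread widely among the controls, with 36.9 FPKM in control 2 and 17.9 FPKM in control 4.

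Cryab and Hspb2 stand head to head on chromosome 9 and share 1030 bases on opposite strands, and strand use in counting is not given, so reads in the shared stretch cannot be assigned with certainty. Cryab encodes alpha B-crystallin, the chaperone of desmin. It had 444, 410, 437 and 483 FPKM in cHET 1 to 4 and 393, 373, 421 and 378 FPKM in control 1 to 4 (log2 fold change 0.18, SE 0.110; adjusted p = 0.650 by limma). Hspb2, a muscle protein that binds the myotonic dystrophy kinase, lay on the other side: 56.7, 73.9, 68.8 and 65.2 FPKM in cHET 1 to 4 and 77.7, 88.9, 79.3 and 61.7 FPKM in control 1 to 4 (log2 fold change -0.21, SE 0.132; adjusted p = 0.657 by limma). Control 4 lay below cHET 2, cHET 3 and cHET 4, so the groups overlapped. The ratio of Hspb2 to Cryab was 0.128 to 0.180 in cHET and 0.163 to 0.238 in control, with overlap between cHET 2 and control 4 (exact two-sided permutation test, p = 0.0571, where 4 against 4 libraries cannot go below 0.0286). This ratio was chosen with the values known. Hspb11 stood at 3.40 to 4.70 FPKM in cHET and 3.80 to 5.23 FPKM in control, and Hspb9 was not tested at a mean of 0.259 FPKM.

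The Hsp90 genes were all above 0 in their log2 fold change, although Hsp90ab1 was not so in every setting. Hsp90aa1 (ENSMUSG00000021270, chromosome 12, 110690605 to 110702728, minus strand) is the inducible cytosolic isoform. It had 73.3, 72.2, 85.3 and 91.3 FPKM in cHET 1 to 4 and 52.8, 70.5, 57.8 and 61.4 FPKM in control 1 to 4. The groups did not overlap, and control 2 came closest to the cHET libraries. The means were 80.5 ± 9.32 FPKM in cHET and 60.6 ± 7.46 FPKM in control (SD, n = 4 each), and the log2 fold change was 0.40 (SE 0.122; adjusted p = 0.415 by limma). Its groups, like those of Hspb8, stayed apart scaled to TPM, scaled without mtDNA-encoded genes, under quantile normalization and in voom. The other alternative settings keep the order of the libraries or leave libraries out, so they could not bring overlap. The lowest adjusted p that any setting gave for any member was 0.136, for Hsp90aa1.

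Hsp90ab1, the constitutive cytosolic isoform, was 4.10 to 7.33 times as high as Hsp90aa1 per library. It had 381, 366, 444 and 420 FPKM in cHET 1 to 4 and 305, 289, 424 and 425 FPKM in control 1 to 4. Control 1 and control 2 were low while control 3 and control 4 lay within the cHET range. The log2 fold change was 0.18 (SE 0.163; adjusted p = 0.734 by limma), and -0.082 without control 1 and control 2. Hsp90b1 (ENSMUSG00000020048, chromosome 10, 86690209 to 86705509, minus strand) encodes the ER isoform Grp94. It had 72.2, 70.9, 72.0 and 72.9 FPKM in cHET 1 to 4 and 54.3, 69.7, 64.3 and 65.1 FPKM in control 1 to 4. The cHET libraries lay close together just above control 2, and the log2 fold change was 0.19 (SE 0.0971; adjusted p = 0.602 by limma). Scaled to TPM, the groups of Hsp90b1 overlapped.

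**Figure D3:**
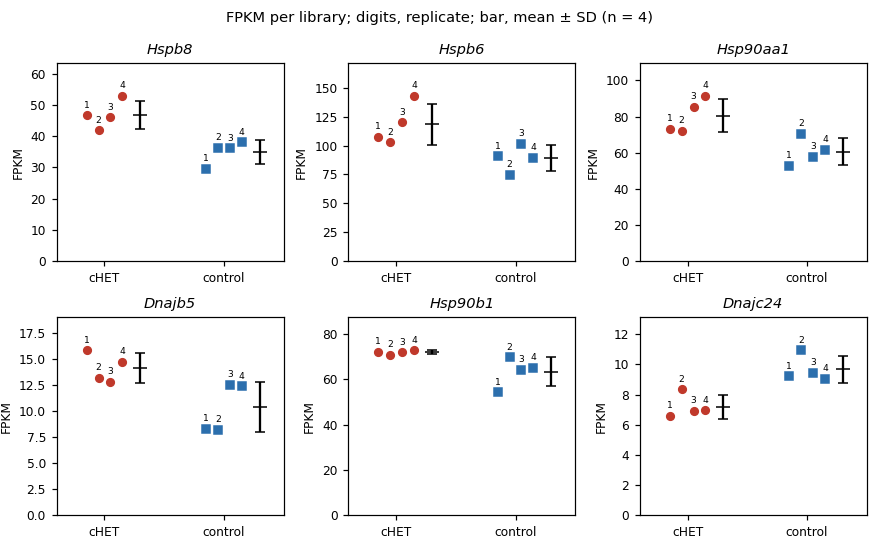
FPKM per library of the 6 heat shock genes whose groups do not overlap, with cHET left (red circles) and control right (blue squares), the replicate number beside each point and mean ± SD as a bar; every axis starts at 0. The cHET libraries lie above the controls in Hspb8, Hspb6, Hsp90aa1, Dnajb5 and Hsp90b1 and below them in Dnajc24.

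Most Hsp70 transcript came from the constitutive Hspa8, which chaperones newly made proteins. It had 301, 193, 208 and 231 FPKM in cHET 1 to 4 and 254, 211, 264 and 185 FPKM in control 1 to 4. The groups covered much the same range, and the log2 fold change was 0.024 (SE 0.172; adjusted p = 0.969 by limma). The stress-inducible pair stood far lower. Hspa1a had 0.611, 0.761, 0.630 and 0.563 FPKM in cHET 1 to 4 and 0.412, 0.730, 0.790 and 0.535 FPKM in control 1 to 4, and was not tested. Hspa1b had 1.52, 1.09, 1.22 and 1.19 FPKM in cHET 1 to 4 and 0.827, 1.59, 1.38 and 1.05 FPKM in control 1 to 4 (36 to 73 reads per library; log2 fold change 0.040, SE 0.132; adjusted p = 0.930 by limma). The split between these near-identical genes is uncertain, so they were also summed. Hspa8 was 104 to 141 times as high as the pair in cHET and 91.0 to 205 times in control. Reads that match both genes may not have been counted, so the pair may be understated even when summed. Hspa1l, a germ cell homologue next to the pair, averaged 0.919 FPKM and was not tested.

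Hspa5 encodes BiP, the Hsp70 of the ER. It had 118, 116, 116 and 113 FPKM in cHET 1 to 4 and 87.7, 104, 113 and 105 FPKM in control 1 to 4. Control 1 was the lowest library and control 3 met the lower end of the cHET range, and the log2 fold change was 0.18 (SE 0.103; adjusted p = 0.639 by limma). Hspa13, another ER-associated Hsp70, had a log2 fold change of -0.03 (adjusted p = 0.901). Hspa2, best known from sperm formation, had 3.91 to 4.57 FPKM in cHET and 2.56 to 4.55 FPKM in control (log2 fold change 0.22; limma, adjusted p = 0.650), and 0.0097 without control 1 and control 2. Hspa14, which works with Dnajc2 at the ribosome, stood at 9.36 to 11.0 FPKM in cHET and 8.56 to 10.3 FPKM in control. Its partner Dnajc2 stood at 6.94 to 7.35 FPKM in cHET and 5.77 to 7.23 FPKM in control. Hspa12b, an endothelial relative, and Hspa12a had log2 fold changes of 0.059 and -0.016.

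In the Hsp110 family, Hspa4 had 32.8, 32.8, 36.9 and 36.6 FPKM in cHET 1 to 4 and 25.8, 29.4, 29.9 and 35.0 FPKM in control 1 to 4. Control 4 alone reached into the cHET range (log2 fold change 0.21, SE 0.105; adjusted p = 0.592 by limma). Hspa4l (ENSMUSG00000025757, chromosome 3, 40744495 to 40796103, plus strand) had 4.14, 4.34, 4.79 and 5.22 FPKM in cHET 1 to 4 and 3.04, 3.32, 3.85 and 4.26 FPKM in control 1 to 4. Control 4 again lay above the lowest cHET library. The log2 fold change was 0.29 (SE 0.107; adjusted p = 0.486 by limma), and 0.15 (adjusted p = 0.749) without control 1 and control 2. Hsph1, the heat-inducible Hsp110 with a 3-unit match after its start, stood at 3.86 to 4.30 FPKM in cHET and 3.06 to 4.20 FPKM in control (log2 fold change 0.069; limma, adjusted p = 0.812).

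Dnaj genes were lower in level, with Dnaja2 the most abundant at a mean of 60.0 FPKM. Dnaja2, a general Hsp70 partner, stood at 56.4 to 68.5 FPKM in cHET and 54.3 to 61.5 FPKM in control (log2 fold change 0.096; limma, adjusted p = 0.741). Dnaja1 stood at 15.4 to 18.9 FPKM in cHET and 14.0 to 17.0 FPKM in control. The mitochondrial Dnaja3 had 22.0, 23.7, 30.8 and 29.7 FPKM in cHET 1 to 4 and 21.9, 20.8, 24 and 25.1 FPKM in control 1 to 4 (log2 fold change 0.19; limma, adjusted p = 0.659). Only cHET 3 and cHET 4 lay above every control library. Dnaja4 varied more within its groups than any other tested member, with an SD of 0.391 on the log2 scale, against a median of 0.140 for the members and 0.171 for all genes. It had 11.1, 10.3, 13.5 and 13.7 FPKM in cHET 1 to 4 and 8.07, 5.86, 12.6 and 13.9 FPKM in control 1 to 4. Control 1 and control 2 were the low libraries, and the log2 fold change of 0.30 was -0.12 without them.

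Dnajb5 (ENSMUSG00000036052, chromosome 4, 42949814 to 42959425, plus strand), whose protein binds the histone deacetylase Hdac4 in heart muscle, had the highest log2 fold change of the members. It had 15.9, 13.2, 12.8 and 14.7 FPKM in cHET 1 to 4 and 8.31, 8.23, 12.5 and 12.4 FPKM in control 1 to 4. Control 3 and control 4 lay just under the cHET libraries, while control 1 and control 2 were far lower. The log2 fold change was 0.43 (SE 0.149; adjusted p = 0.463 by limma), and 0.17 (adjusted p = 0.700) without control 1 and control 2. Scaled to TPM, the groups of Dnajb5 overlapped. Dnajb1, the heat-inducible partner of Hsp70, stood at 11.0 to 13.3 FPKM in cHET and 10.5 to 12.5 FPKM in control (log2 fold change 0.056; limma, adjusted p = 0.832). Dnajb4 and Dnajb6, a suppressor of aggregation linked to muscle disease, had log2 fold changes of -0.016 and 0.016, and Dnajb2 had -0.037. These 3 values changed sign in some of the alternative settings.

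In the Dnaj genes of the ER named here the groups overlapped, with log2 fold changes on both sides of 0. Dnajb11, a partner of BiP, stood at 23.4 to 25.9 FPKM in cHET and 18.6 to 24.1 FPKM in control (log2 fold change 0.16; limma, adjusted p = 0.651). Dnajb9, induced in ER stress, stood at 6.55 to 9.01 FPKM in cHET and 7.14 to 9.06 FPKM in control (log2 fold change -0.024). Dnajc3, which inhibits the kinase Perk, stood at 9.54 to 11.1 FPKM in cHET and 9.34 to 10.7 FPKM in control (log2 fold change 0.037). Dnajc10, a disulfide reductase, had a log2 fold change of -0.12 (limma, adjusted p = 0.714). The genes with the printed ER stress elements, Hspa5, Hsp90b1 and Dnajc3, thus had log2 fold changes of 0.18, 0.19 and 0.037.

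Dnajc24 (ENSMUSG00000027166, chromosome 2, 105966709 to 106003549, minus strand) encodes a protein needed to make diphthamide on elongation factor 2. It had 6.58, 8.35, 6.91 and 6.94 FPKM in cHET 1 to 4 and 9.22, 10.9, 9.44 and 9.05 FPKM in control 1 to 4. Every cHET library was lower than every control library, and cHET 2 came closest. The means were 7.20 ± 0.789 FPKM in cHET and 9.66 ± 0.867 FPKM in control (SD, n = 4 each), from 152 to 242 reads per library. The log2 fold change was -0.38 (SE 0.0941; adjusted p = 0.337 by limma), and it ranged from -0.45 to -0.31 over the 22 alternative settings. Scaled to TPM, its groups overlapped.

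The more abundant Dnajc genes gave smaller differences. Dnajc4 had 37.1, 37.7, 39.6 and 45.7 FPKM in cHET 1 to 4 and 47.8, 54.2, 40.4 and 38.7 FPKM in control 1 to 4. Control 1 and control 2 were the 2 highest libraries, and the log2 fold change of -0.17 was 0.012 without them. Dnajc9, a histone chaperone, had 21.1, 23.2, 24.8 and 25.8 FPKM in cHET 1 to 4 and 16.3, 23.5, 21 and 18.5 FPKM in control 1 to 4 (log2 fold change 0.26, SE 0.119; adjusted p = 0.574 by limma). Control 2 alone reached well into the cHET range. Dnajc8, a splicing factor, and Dnajc7, which links Hsp70 with Hsp90, had log2 fold changes of 0.13 and 0.070. Dnajc5, the cysteine string protein of vesicle release, had 0.11, and -0.039 without control 1 and control 2. The mitochondrial Dnajc15, Dnajc11 and Dnajc30 had log2 fold changes of -0.16, 0.14 and -0.064 (limma, adjusted p = 0.756, 0.679 and 0.828).

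The members under 1 FPKM were Hspa1l, Hspa1a, Hspb9, Dnajb13, Dnajb7, Dnajb8, Dnajc22, Dnajc5b, Dnajc6 and Dnajc5g. Dnajc5g was listed at 0 in all 8 libraries. Of the 69 members, 35 overlap another gene of the table and 18 overlap a protein-coding gene on the other strand, Hspb6 by 3 and 122 bases among them, so their counts may hold reads of a neighbour.

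**Figure D4:**
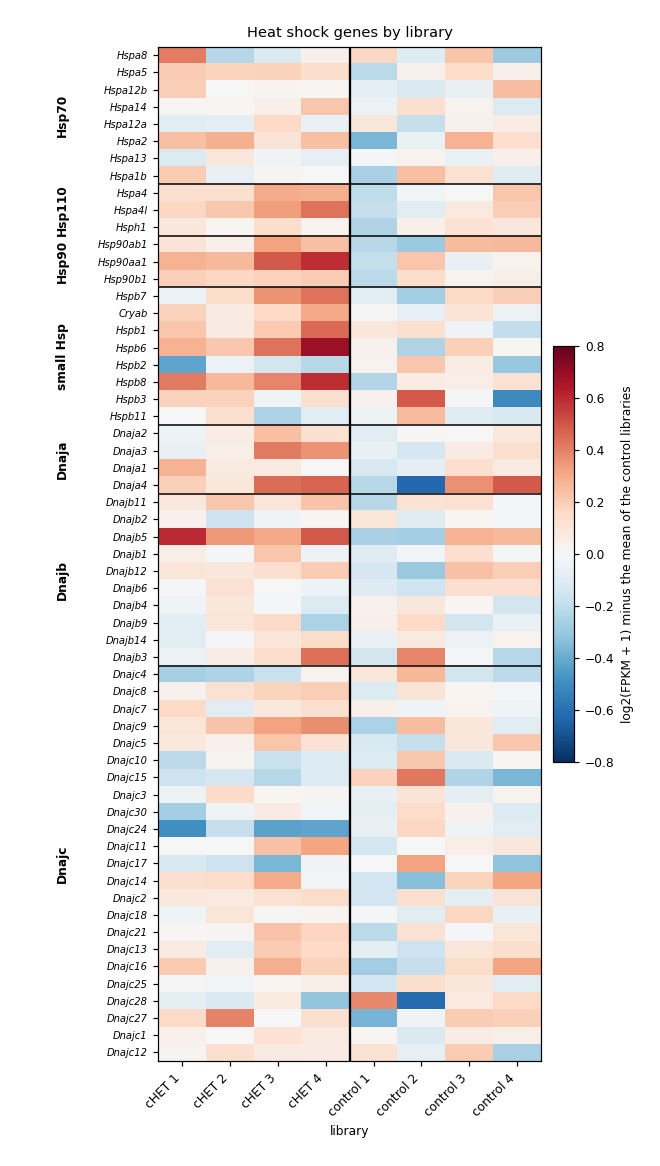
Each tested heat shock gene (rows, by family) in each library (columns, cHET left of the black line, control right), coloured by log2(FPKM + 1) minus the mean of the 4 control libraries. Among the small heat shock genes the median is 0.37 in cHET 4 and 0.14 to 0.19 in the other cHET libraries; over all tested members control 1 is lowest, with a median of -0.090, and control 2 holds both red and blue cells.

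The libraries did not contribute evenly. Control 1 was the lowest of the 8 libraries in 21 of the 59 tested members (35.6%, against 16.9% of all genes) and control 2 in 17 (28.8%, against 23.6%). The highest library was cHET 4 in 16 members (27.1%, against 12.2% of all genes). Control 1 and control 2 were together the 2 lowest libraries in 17 members (28.8%, against 17.7% of all genes) and the 2 highest in 2 members, Dnajc4 and Dnajc15 (3.39%, against 16.3%). The 17 were Hspa5, Hspa12b, Hspa2, Hspa4, Hspa4l, Hsp90ab1, Hspb7, Dnaja3, Dnaja1, Dnaja4, Dnajb5, Dnajb12, Dnajb6, Dnajc5, Dnajc14, Dnajc16 and Dnajc27. Control 1 and control 2 are the libraries with the highest Ucp1. They also had the largest summed FPKM over all genes, 450265 in control 1 and 467217 in control 2. The other 6 had 353291 to 392047. Beyond leaving both out and, for the summed FPKM, scaling to TPM, the part of either in these values was not tested.

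Without control 1 and control 2, 37 of the 59 members lay above 0 in log2 fold change (62.7%, against 50.6% of all genes), and the median was 0.048, against 0.0023 for all genes. Of the 45 members above 0 with all 8 libraries, 32 kept that sign and 13 lay below 0, while 5 moved from below to above 0. The 13 were Hspa12b, Hsph1, Hsp90ab1, Dnaja4, Dnajb1, Dnajb12, Dnajb6, Dnajc5, Dnajc14, Dnajc18, Dnajc13, Dnajc16 and Dnajc27, and the 5 were Hspb11, Dnajb4, Dnajb9, Dnajc4 and Dnajc15. Each of the 4 cHET libraries lay above both remaining controls in 9 members (15.3%, against 10.1% of all genes) and below both in 2 (3.39%, against 8.17%). Hsp90aa1 kept a log2 fold change of 0.42 (SE 0.118; adjusted p = 0.442 by limma), Hspb8 had 0.32 (adjusted p = 0.479) and Dnajc24 had -0.33 (adjusted p = 0.463). Hspb1 had 0.35 (adjusted p = 0.511), against 0.24 with all 8 libraries, and Hspb3 had 0.38 (adjusted p = 0.542), against 0.12. Hspb6 had 0.30 (adjusted p = 0.637). No adjusted p was under 0.05 in that fit.

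**Figure D5:**
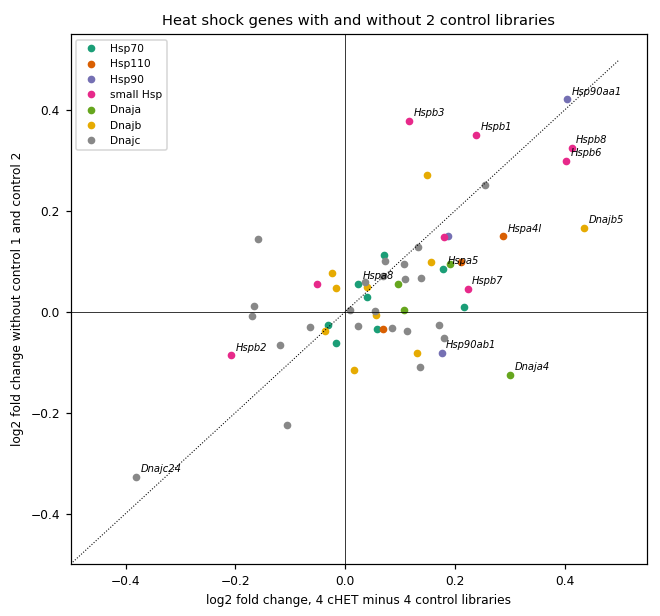
Log2 fold change (cHET minus control) of each tested heat shock gene from all 8 libraries (horizontal axis) and without control 1 and control 2 (vertical axis), coloured by family, with the dotted line marking equal values. Hsp90aa1 and Dnajc24 lie near the line, Hspb8 and Hspb6 somewhat below it, Dnajb5, Hspb7 and Hspa4l lie well below it, Hspb3 and Hspb1 lie above it, and Hsp90ab1 and Dnaja4 lie below 0 on the vertical axis.

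Other genes of the folding pathway gave no adjusted call either. Of 4 genes tested for heat shock factors and a protein that binds them (Hsf1, Hsf2, Hsf4 and Hsbp1), 0 had an unadjusted p under 0.05. Hsf1 itself had 8.31, 7.04, 7.26 and 7.88 FPKM in cHET 1 to 4 and 8.53, 8.11, 7.04 and 7.18 FPKM in control 1 to 4 (log2 fold change -0.014; limma, adjusted p = 0.962). Of 18 Hsp90 cochaperones, 2 were higher and 0 lower at an unadjusted p under 0.05, with a median log2 fold change of 0.028. Over all genes 5.03% were higher and 3.92% lower at that threshold, which are the shares for each list below. Stip1, which hands clients from Hsp70 to Hsp90, had 71.1, 76.5, 97.7 and 98.9 FPKM in cHET 1 to 4 and 55.7, 68.2, 75.6 and 71.8 FPKM in control 1 to 4 (log2 fold change 0.33, SE 0.145; adjusted p = 0.552 by limma). The phosphatase Ppp5c had a log2 fold change of 0.26 (adjusted p = 0.557). In both genes the groups overlapped.

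Among 14 subunits of the chaperonin TRiC and of prefoldin, Cct8 (log2 fold change 0.22) and Pfdn2 (0.24) had an unadjusted p under 0.05, 0 were lower, and the median was 0.067. For 10 nucleotide exchange factors and partners of Hsp70 the median was 0.055, and for 21 other ER folding and ER stress genes 0.032, with 0 past an unadjusted p of 0.05 in either list. Of 17 mitochondrial chaperones and proteases, 0 were higher and 1, the protease Oma1, was lower (log2 fold change -0.24; limma, adjusted p = 0.524), with a median of 0.046. Of 13 immediate early genes, which respond to tissue handling, 0 had an unadjusted p under 0.05, and the median was -0.073. Of the cold-induced pair, Cirbp had 40.8, 36.0, 40.8 and 31.8 FPKM in cHET 1 to 4 and 54.7, 47.7, 41.3 and 44.3 FPKM in control 1 to 4 (log2 fold change -0.32; limma, adjusted p = 0.486). Every cHET library lay below every control library for Cirbp, by a narrow margin at control 3, while Rbm3 had a log2 fold change of 0.14 (adjusted p = 0.695).

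Marker lists of other cell types were set beside these values. At an unadjusted p under 0.05, 5.03% of all genes were higher and 3.92% lower. Of 8 cardiomyocyte markers, 0 were higher and 1, Pln, was lower at an unadjusted p under 0.05 (log2 fold change -0.48; limma, adjusted p = 0.486), with a median of -0.15. Of 5 endothelial markers, Emcn (-0.39) and Tek (-0.23) were lower at that threshold and the median was -0.033. Of 6 blood and leukocyte markers tested, Tyrobp was lower at that threshold (-0.76) and the median was -0.41. The medians were -0.21 for 5 fibroblast markers, -0.076 for 4 smooth muscle and pericyte markers, -0.93 for 4 atrial markers and -0.83 for the 3 fat markers tested, with 0 past an unadjusted p of 0.05. Of the 4 testis and cilia markers, none reached 1 FPKM and 1, Tnp1, was at 0 in all 8 libraries. Atrial markers summed to 241 FPKM in cHET 3 and to at most 5277 FPKM in the other cHET libraries, against 1459 to 5117 FPKM in control. Without cHET 3 the log2 fold changes were 0.42 for Hspb8, 0.39 for Hspb6, 0.38 for Hsp90aa1, 0.48 for Dnajb5, 0.19 for Hsp90b1 and -0.37 for Dnajc24; the part of tissue makeup in the heat shock values was not tested otherwise.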

How the data were processed

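RNA of 8 heart samples was measured. The authors deposited 1 FPKM value per gene and library and a gene length in bases, which was used to rebuild reads (FPKM times length gave whole reads for 100% of values, within 0.05). The tools named in the submitters' processing notes, with no roles, are featureCounts 1.5.0-p3, HISAT2 2.0.5 and DESeq2 1.20.0, beside build mm9; coordinates matched GRCm38 (GENCODE M21) for 53499 of 54409 shared genes (98.3%) and for 66 of 69 members. Strand use in counting is not given in the sources used here.

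Genes with a mean of at least 1 FPKM (13029) entered limma 3.58.1 (R 4.3.3) on the log2(FPKM + 1) scale (eBayes with trend and robust, two-sided, no covariate, Benjamini-Hochberg over all 13029, threshold 0.05); this scale understates changes of low genes. The limma step was run on simulated reads with changes set in advance, which checks the step and not its power in these libraries. The series calls the libraries of a group biological replicates. Members and lists were chosen with earlier results of these data known. Named were a fixed set of members, members past an unadjusted p of 0.05 or with no overlap, the 10 most abundant Dnaj genes, members at 0, list genes by the same criteria, Mrps5 and cell type markers. Other members, Hsf1 and Rbm3 were added with their values known. Same-numbered libraries correlated at 0.052 to 0.29, not above 0.1 throughout, so numbers were not taken as pairs. The alternatives were other pseudocounts, filters, scalings and variance models, voom, sex, a replicate block, and libraries left out, also control 1 and control 2 together.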

Additional observations from a re-analysis of the deposited data

Results flagged for a closer look

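A library far from the other 3 of its group was looked for in 78 groups of 4, and 4 were found, all in Hsp70 genes; chance gives about 1 in 20. Hspa12b stood at 19.4 FPKM in cHET 1, against 16.8 to 17.0 FPKM in the other cHET libraries, and at 20.1 FPKM in control 4, against 15.4 to 16.0 FPKM in the other control libraries. Hspa14 stood at 11.0 FPKM in cHET 4, against 9.36 to 9.62 FPKM in the other cHET libraries. Hspa12a stood at 8.96 FPKM in cHET 3, against 7.38 to 7.60 FPKM in the other cHET libraries.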

How the results depend on the processing

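No member had an adjusted p under 0.05 under any of the 22 alternatives (lowest 0.136). Of 39 named members tested, 22 kept the sign of their log2 fold change in every alternative and 17 changed it in at least 1, in 49 of 853 values. Some of the 853 could not change: other filters, protein-coding genes alone, eBayes without trend and robust, and the replicate block leave each log2 fold change as reported. Genes called higher over the whole table, 3 as reported, numbered 1 with a mean FPKM of at least 5 and 8 with library weights, where 3 were called lower. With the replicate block 1 gene was called higher and the members' median stayed at 0.096. In that fit 7 members were higher at an unadjusted p under 0.05 (11.9%, against 7.26% of all genes). The control most like cHET 1 to 4 was control 1, 2, 4 and 2. Scaled to TPM, 0 members lay below every control library (against 1.13% of all genes) and the members' median was 0.20. Scaled without mtDNA-encoded genes it was 0.16. In that setting 8 members were higher at an unadjusted p under 0.05 (13.6%, against 5.46% of all genes). The members' median was 0.045 with library weights, 0.063 without control 1 and 0.048 without control 1 and control 2. Leaving out single libraries gave 3 to 7 members higher at an unadjusted p under 0.05. These were 5.08% to 11.9% of members, against 2.76% to 7.99% of all genes. At that threshold 1 to 3 were lower, against 301 to 952 of the 13029 genes. With no overlap, 5 to 8 were higher (8.47% to 13.6%, against 3.33% to 6.11% of all genes). Likewise 1 to 3 were lower with no overlap (1.69% to 5.08%, against 2.56% to 5.39%). The 3 higher came without cHET 4, and the 8 without cHET 2 or control 4. The lower counts were 3 without control 4 and, for unadjusted p, 2 without control 2. Without control 1 and control 2, 9 members lay above and 2 below all remaining controls, which are fewer, and 18 of 59 members (10 of the 39 named) changed sign, 7 of them with a reported value larger than its SE; the named ones among these 7 were Hsp90ab1 (-0.082), Dnajc5 (-0.039), Dnajc4 (0.012) and Dnaja4 (-0.12). Apart from fewer libraries or genes, the cause was not tested. Depth limits the low members most: Hspa1a rests on 19 to 45 reads per library.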
